A study of Homo sapiens with 23 samples.

Results

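The 4 human HOX gene clusters were described from peak lists of chromatin immunoprecipitation followed by sequencing (ChIP-seq) in NCI-H23 cells, a cultured line from a non-small cell lung cancer. A peak belonged to a cluster where its summit, the position of highest enrichment, lay in a fixed window of human genome build hg19. The windows were chr7:27120001-27260000 for HOXA, chr17:46600001-46810000 for HOXB, chr12:54330001-54450000 for HOXC and chr2:176940001-177060000 for HOXD. Of the 2889028 peaks in all lists, 2349 lay in these windows: 587 in HOXA, 654 in HOXB, 719 in HOXC and 389 in HOXD. Position alone chose these peaks, by a rule that used no measured value but was set with earlier results of these data known. The study profiled 11 targets with 2 replicate libraries each, giving 22 peak lists. The targets were BRD2, 5 histone methylations (H3K4me1, H3K4me3, H3K36me3, H3K9me3 and H3K27me3) and 5 acetylation marks (H3K27ac, H4K5ac, H4K8ac, H4K12ac and H4K5acK8ac, the H4 tail acetylated on both lysines, detected with the submitters' own mouse monoclonal antibody). All cells came from the same line, grown in RPMI with serum. The treatment protocol names JQ1, a BET bromodomain inhibitor, at 500 nM or its solvent DMSO for 24 h, but the labels do not assign libraries to either, and JQ1 was not compared with DMSO.

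HOX genes encode homeodomain transcription factors that set position along the body axis. They lie in order in each cluster and are switched on in a sequence that follows this order. Where a HOX cluster is silent it is a textbook target of Polycomb repressive complexes, which cover it with H3K27me3. Active HOX genes carry H3K4me3 at their start sites and acetylated histones around them, and H3K36me3 marks transcribed gene bodies. BRD2 is a BET protein whose paired bromodomains bind acetylated histone H4. In the RefSeq table of assembly GRCh38.p14 the clusters hold 39 HOX genes. HOXA13 and HOXB13 lie at the high-coordinate end of their clusters. HOXC and HOXD run from HOXC13 and HOXD13 at the low end to HOXC4 and HOXD1. The next protein-coding genes are SKAP2 and EVX1 around HOXA, SKAP1 and TTLL6 around HOXB, CALCOCO1 and SMUG1 around HOXC, and EVX2 and MTX2 around HOXD. PRAC1 and PRAC2 lie within HOXB. This table is of another build than the lists, so it served for names and order only and no peak was assigned to a gene. Markers of the cell line were not analysed here for the same reason.

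The lists hold only peaks past a threshold, with the lowest −log10 p between 2.00 and 2.11, and they give no read numbers. Sequencing depth is therefore unknown, and a place without a peak is one that was not called at this depth. The labels do not say that replicates are separate cultures, so the spread between them may be technical. Values are given per library without a test, since with 2 libraries in each group the smallest two-sided exact p is 0.333. Shares were counted over bins of 1 kb, where a bin was called for a target if a peak of both replicate lists touched it, and were set beside the same share over all 2947081 bins of the 22 autosomes and chromosome X. Replicate agreement is given as the Jaccard index, the bins called in both lists divided by those called in either. Inside the windows it was 0.937 for H3K4me3, 0.704 for H3K27ac, 0.515 for BRD2 and 0.478 for H3K27me3. Over the genome it was 0.93, 0.536, 0.211 and 0.502 in the same order.

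Polycomb-marked chromatin was scarce in all 4 clusters, and 2 of them had none. No H3K27me3 peak of either list had its summit in HOXA or HOXC. HOXB held 6 H3K27me3 peaks in replicate 1 and 7 in replicate 2, and HOXD held 6 and 5. Both lists called H3K27me3 in 0 of 140 bins of HOXA, 5 of 210 bins of HOXB (2.38%), 0 of 120 bins of HOXC and 6 of 120 bins of HOXD (5.0%). Over the 4 windows this was 11 of 590 bins, or 1.86%, against a genome share of 7.09%. In single lists the window share was 2.71% in replicate 1 and 3.05% in replicate 2. H3K9me3, the mark of constitutive heterochromatin, was called in 7 of 590 bins (1.19%, genome 7.44%), and 4 of those 7 lay in HOXD.

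Active marks covered far more of the same windows. H3K27ac, found at active promoters and enhancers, was called in both lists in 37 bins of HOXA (26.4%), 30 bins of HOXB (14.3%), 68 bins of HOXC (56.7%) and 22 bins of HOXD (18.3%). The genome share was 4.29%. HOXC lay above the other clusters in both replicates: 58.3% and 74.2% of its bins, against 33.6% and 32.9% in HOXA, 16.7% and 18.1% in HOXB, and 20.0% and 25.8% in HOXD. HOXB stood closest to its surroundings, since chromosome 17 as a whole had an H3K27ac share of 10.6%. H3K4me3 was called in 25.0% of HOXA, 18.6% of HOXB, 35.8% of HOXC and 25.8% of HOXD, against 2.03% of the genome. H3K4me1, which extends over enhancers and promoter edges, was called in 39.3%, 26.2%, 79.2% and 27.5% in the same order (genome 6.44%).

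The 4 remaining acetylation marks gave the same order at the top. H4K5ac was called in 42.1% of HOXA, 28.6% of HOXB, 65.8% of HOXC and 30.0% of HOXD (genome 3.8%). H4K8ac was called in 36.4%, 29.0%, 53.3% and 25.0% (genome 2.92%), H4K12ac in 29.3%, 18.1%, 40.8% and 24.2% (genome 2.37%), and H4K5acK8ac in 34.3%, 21.9%, 47.5% and 28.3% (genome 3.33%). HOXC was therefore first for every acetylation mark with both lists required. H4K8ac was the least stable of them: its replicate 1 list alone called 66.4% of HOXA and 50.8% of HOXD, and its replicate 2 list 42.1% and 29.2%. BRD2 was called in both lists in 13.6% of HOXA, 10.5% of HOXB, 12.5% of HOXC and 11.7% of HOXD (genome 0.721%). In each single list HOXC was first, with 20.0% in replicate 1 and 24.2% in replicate 2, ahead of HOXA with 15.0% and 22.1%, HOXD with 13.3% and 20.8%, and HOXB with 12.9% and 15.7%. The BRD2 lists matched least in HOXC, where the Jaccard index was 0.395, so the order of the clusters depended on whether both lists were required. H3K36me3 lay near or below its genome share of 8.69%, with 5.71% of HOXA, 1.9% of HOXB, 9.17% of HOXC and 4.17% of HOXD.

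**Figure D1:**
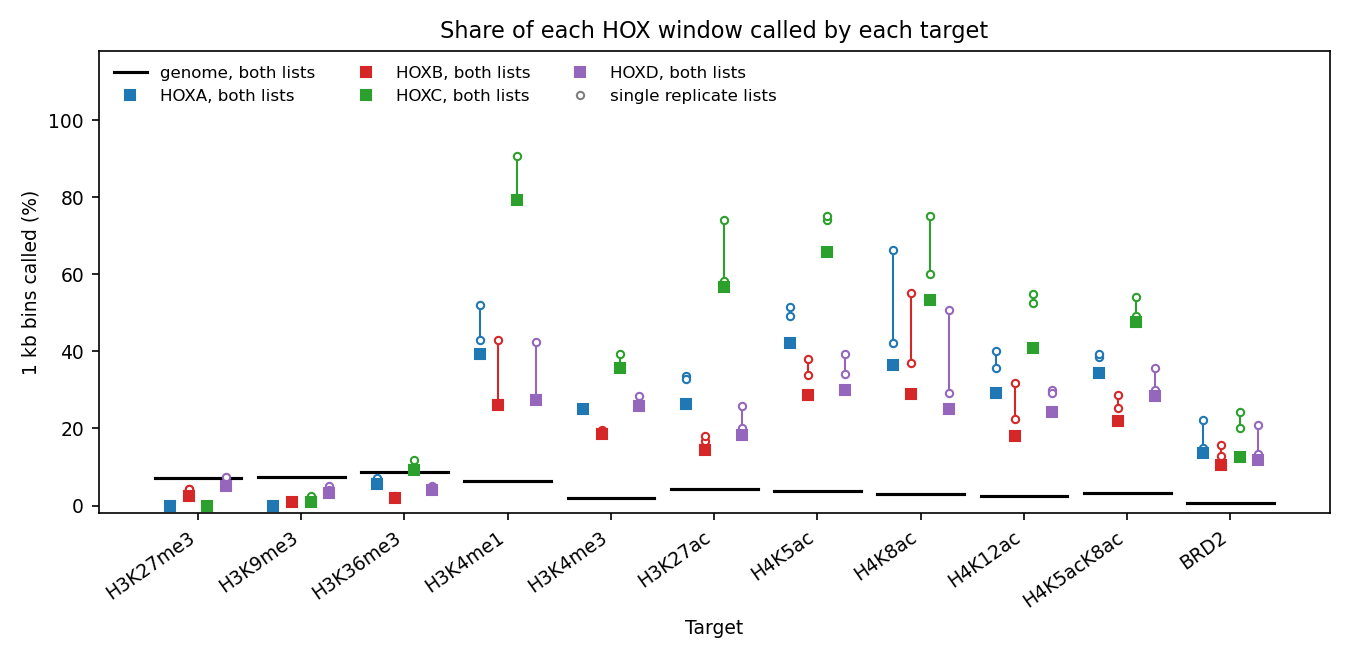
Percent of the 1 kb bins of each HOX window (y axis) called by each of 11 targets (x axis). Filled squares need both replicate lists, open circles are single lists joined by a line, and the black bar is the genome share for both lists. The squares of H3K27me3 and H3K9me3 lie below their genome bars in all 4 clusters, and those of the acetylation marks, H3K4me1, H3K4me3 and BRD2 lie above theirs, with HOXC highest for each except BRD2.

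Each window was compared with flanks of the same length directly below and above it. H3K27ac was called in both lists in 5.0% of the flank below HOXA and 1.43% of the flank above it, 7.5% and 1.67% around HOXC, and 1.67% and 2.5% around HOXD. The flank below HOXB had 1.9%, but the flank above had 18.1%, more than the 14.3% of HOXB itself. That upper flank also had H3K36me3 in 31.0% of its bins, where HOXB had 1.9%, and H3K4me3 in 6.19%, where HOXB had 18.6%. BRD2 was called in 2.86% of it, and in no more than 1.67% of any other flank. Other active marks went on below HOXC, where the flank had H4K5ac in 22.5% of its bins, H3K4me1 in 20.0%, H4K8ac in 15.8% and H4K5acK8ac in 8.33%, each below the share in HOXC and above that of the genome. H3K27me3 was scarce outside too, with 4.29% of the flank below HOXA, 3.33% below HOXB, 2.5% above HOXD, 1.67% below HOXD, 0.833% above HOXC and 0 elsewhere.

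**Figure D2:**
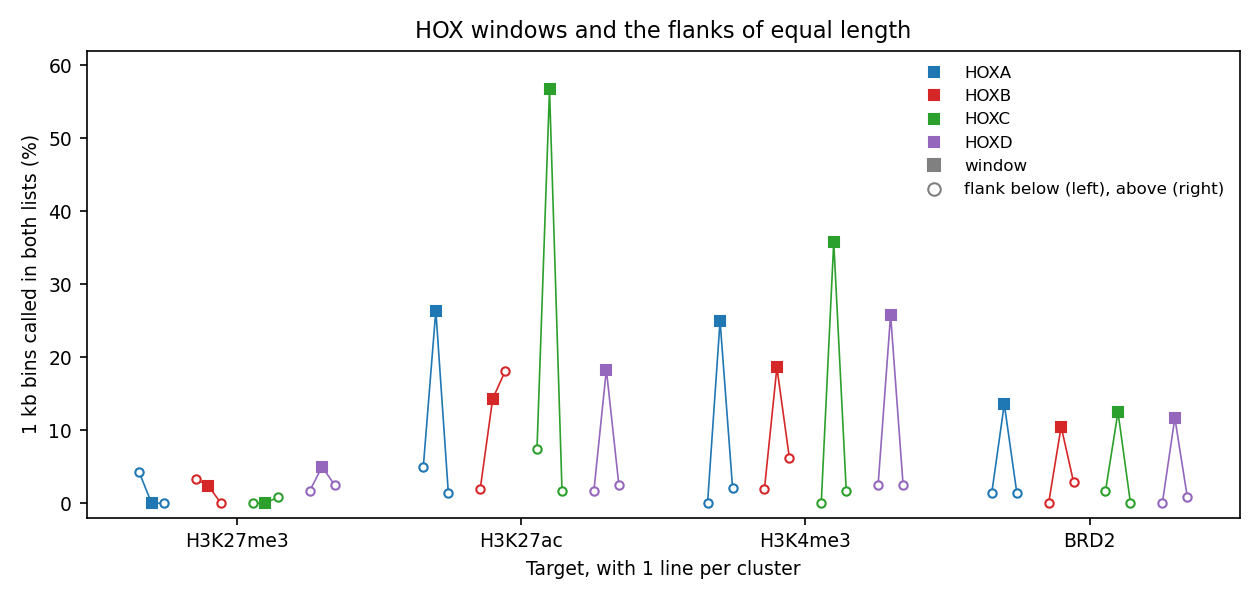
Percent of 1 kb bins called in both lists (y axis) for 4 targets (x axis) in each HOX window (filled square) and in the flanks of equal length below it (left circle) and above it (right circle). H3K27ac and H3K4me3 peak in the window except for H3K27ac above HOXB, where the flank reaches 18.1% against 14.3% in the window.

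To describe the layout within a cluster, a bin was classed as active where both lists called H3K27ac but not H3K27me3, as Polycomb where both called H3K27me3 but not H3K27ac, and as mixed where both marks were called. Over the genome 4.27% of bins were active, 7.07% Polycomb and 0.0173% mixed. Bins of the same class were joined into a segment across gaps of at most 3 bins of neither class. A boundary was an active segment next to a Polycomb segment, each of at least 3 bins.

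HOXA was a series of separate active islands with no Polycomb segment. It held 10 active segments of 1 to 7 kb, and the longest were chr7:27207001-27214000 and chr7:27219001-27226000. These lay toward the HOXA13 side of the window. The length of a segment depended on the library: the longest reached 19 kb with the replicate 1 lists alone and 11 kb with the replicate 2 lists alone. The 11 H3K4me3 regions called in both lists all carried H3K27ac, H4K5ac, H4K12ac and H4K5acK8ac in both lists, and 10 of them carried H4K8ac as well. The 5 longest H3K4me3 regions were as follows. The region chr7:27134564-27139195 was 4632 bp long, with fold enrichments of 66.7 in replicate 1 and 71.3 in replicate 2. The region chr7:27222837-27225864 was 3028 bp long and the strongest of the cluster by fold, at 88.9 and 102. Both held BRD2 in both lists, as did chr7:27188518-27191407 (75.9 and 88.2). BRD2 was called in 1 list at chr7:27238087-27240658 (64.7 and 78.1) and chr7:27181354-27183536 (82.6 and 81.4). The strongest H3K36me3 peak of HOXA lay at chr7:27183548-27185898 in replicate 1 (fold 7.04) and at chr7:27183553-27185784 in replicate 2 (fold 5.82), directly beside the last of these regions.

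HOXB was the longest window. Its 11 active segments were 1 to 6 kb long, and the longest was chr17:46670001-46676000. The longest was also 6 kb with the replicate 1 lists alone and 11 kb with the replicate 2 lists alone. The strongest place of the cluster was a single one. Of the 12 acetylation and BRD2 lists, 11 had their strongest HOXB peak overlapping chr17:46687198-46689663, the exception being H4K8ac replicate 2. H3K27ac there had a fold of 25.2 in replicate 1 and 36.5 in replicate 2, and BRD2 a fold of 9.58 and 21.5. The widest H3K4me3 region of HOXB, chr17:46687061-46692493 with 5433 bp, covered the same place (67.7 and 72.0). The next widest were chr17:46653738-46656637 (70.2 and 93.8), chr17:46679473-46682075 (24.4 and 27.9), chr17:46702029-46704572 (84.0 and 94.9) and chr17:46631300-46633535 (27.8 and 32.9). All 5 held all 5 acetylation marks and BRD2 in both lists.

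H3K27me3 in HOXB came in short stretches amid the active islands. The longest Polycomb segment was 2 kb, chr17:46694001-46696000, and 33986 of 48001 Polycomb segments in the genome were at least as long. The H3K27me3 peak of this HOXB segment was chr17:46694881-46695680 in replicate 1, with a fold of 3.98 and stronger than 77.57% of its list. In replicate 2 it was chr17:46694992-46695781, with a fold of 6.4 and stronger than 98.61% of its list. It lay on an H3K4me3 region, chr17:46694765-46695935, with folds of 17.2 and 15.5. H3K27ac, H4K5ac, H4K8ac, H4K5acK8ac and BRD2 had no peak on this region in either list, and H4K12ac had one in a single list. This was the only H3K4me3 region of HOXB to carry H3K27me3 without H3K27ac in both lists. A mixed stretch followed at chr17:46702001-46704000. There H3K27me3 peaks at chr17:46702161-46703081 (replicate 1, fold 3.79) and chr17:46702224-46703076 (replicate 2, fold 4.73) lay on the strongest H3K4me3 region of the cluster, together with H3K27ac and BRD2. A Polycomb bin at chr17:46676001-46677000 rested on peaks of the 2 lists that did not touch each other. The other H3K27me3 peaks of HOXB were found in 1 list only, and none of those exceeded a fold of 3.71.

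**Figure D3:**
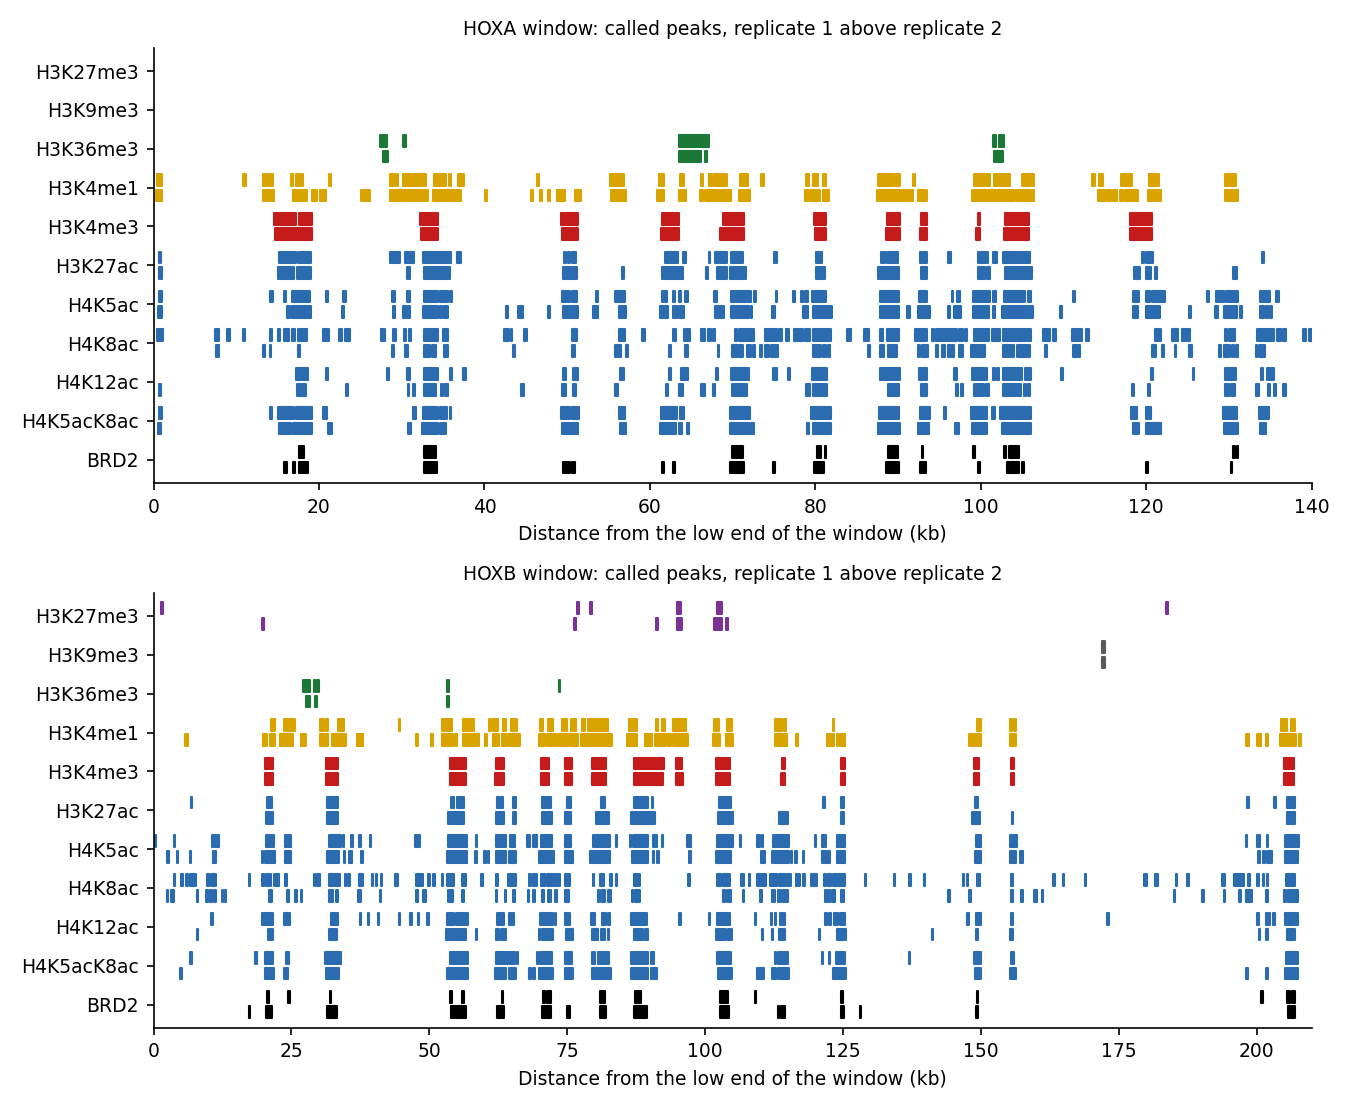
Called peaks of 11 targets (rows) along the HOXA and HOXB windows, against the distance in kb from the low end of the window, with replicate 1 drawn above replicate 2. HOXA shows islands in which H3K4me3, the acetylation marks and BRD2 coincide and no H3K27me3 or H3K9me3. HOXB shows short H3K27me3 peaks between its islands and on some of them. Near its high end HOXB has a 48 kb stretch without H3K4me3, H3K27ac or H3K27me3 in both lists.

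HOXC held the longest active segment of the 4 clusters. The segment spanned 71 kb, chr12:54362001-54433000, and 61 of its 71 bins were themselves called H3K27ac in both lists. Of 29458 active segments in the genome, 60 were at least as long, the median was 3 kb and the longest was 396 kb. The span was 71 kb with the replicate 1 lists alone and 73 kb with the replicate 2 lists alone. It rested on the joining of gaps: with at most 1 bin bridged, the longest piece was 37 kb. With H4K5acK8ac in place of H3K27ac the longest segment was 56 kb. H3K4me1 formed an unbroken run of 30 kb in both lists, chr12:54381001-54411000, within this span. The segment took up the middle of the window and part of its HOXC4 side, and shorter active segments stood at chr12:54332001-54335000, chr12:54348001-54351000 and chr12:54446001-54447000.

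One place in HOXC held the strongest peak of most acetylation lists. It was chr12:54409920-54416000, overlapped by the strongest HOXC peak of 10 of the 12 acetylation and BRD2 lists. Its H3K27ac peak had a fold of 73.0 in replicate 1 and, as chr12:54409828-54416081, 68.1 in replicate 2, stronger than 99.34% and 99.73% of the peaks of those lists. H4K5ac reached a fold of 19.7 and 23.3 there. The strongest H3K4me1 peak of HOXC in replicate 2, chr12:54412106-54424439, started in it with a fold of 27.2 and was stronger than 99.94% of its list, whereas in replicate 1 the strongest was chr12:54388354-54393269 with a fold of 12.8. H3K4me3 at this place, chr12:54410070-54414178, was moderate for the cluster, with folds of 58.7 and 64.7. The widest H3K4me3 region of all clusters also lay in HOXC, chr12:54374934-54383646 with 8713 bp and folds of 84.3 and 97.4. It was wider than 99.7% of the H3K4me3 regions of the genome. Next came chr12:54331751-54336372 (86.3 and 95.2), chr12:54366039-54369814 (80.8 and 90.3) and chr12:54392677-54395309 (81.4 and 86.6). All 5 held all 5 acetylation marks, and all but chr12:54331751-54336372 held BRD2 in both lists. H3K9me3 was called in both lists at 1 place in HOXC, on the H3K4me3 region chr12:54426458-54427953, with folds of 3.89 and 2.93. H3K36me3 was strongest at chr12:54337818-54340791 in replicate 1 (fold 7.62) and chr12:54338464-54340777 in replicate 2 (fold 10.2), just above the H3K4me3 region at the low end.

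HOXD carried the clearest repressive stretch of the clusters, at the low end of its window, the side of HOXD13 and EVX2. Since no peak was assigned to a gene, whether this stretch lies at a HOX gene or at EVX2 is not known. The longest Polycomb segment was chr2:176946001-176949000, preceded by a mixed stretch at chr2:176944001-176946000 and a Polycomb bin at chr2:176943001-176944000. Its length of 3 kb was ordinary, since 24379 of 48001 Polycomb segments in the genome were at least as long. In replicate 1 the strongest H3K27me3 peaks were chr2:176943043-176944102 with a fold of 4.21 and chr2:176945596-176946136 with a fold of 6.71, stronger than 98.5% of its list. In replicate 2 they were chr2:176943038-176944150 with a fold of 4.58 and chr2:176945402-176947430 with a fold of 7.17, stronger than 99.3% of its list. Weaker H3K27me3 peaks also made up the Polycomb segment. Among them were chr2:176946235-176946890 (fold 3.92) and chr2:176947659-176948156 (3.54) in replicate 1, and chr2:176947589-176948126 (3.69) in replicate 2. The same stretch carried H3K9me3, at chr2:176945627-176948808 in replicate 1 (fold 7.53) and chr2:176945502-176947505 in replicate 2 (fold 5.8). These were the strongest H3K9me3 peaks of the 4 clusters. It also met an H3K4me3 region, chr2:176943356-176945837 with folds of 77.2 and 88.2, that held all 5 acetylation marks and BRD2 in both lists. Repressive and active marks thus adjoined and partly overlapped over a few kb, with H3K27me3 on either side of H3K27ac and H3K9me3 on its high side. The lists come from whole cell populations, and marks on the same and on different chromosomes cannot be told apart.

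The rest of HOXD was active in islands up to just past the middle of the window, with fewer islands beyond. The strongest H3K4me3 region of HOXD by fold lay near the high end, chr2:177052244-177054019 (81.6 and 95.6). It held all 5 acetylation marks in both lists, and BRD2 and H3K27me3 in 1 list each. The 7 active segments of HOXD were 1 to 6 kb long, and the longest were chr2:176983001-176989000 and chr2:177000001-177006000. With the replicate 2 lists alone the longest was 13 kb. No single place led the cluster: at most 4 of the 12 acetylation and BRD2 lists had their strongest HOXD peak at the same place, chr2:177004996-177005906. The widest H3K4me3 region was chr2:176968648-176973232 with 4585 bp (63.9 and 70.3). Beside the one at the low end of the window, the next were chr2:176986700-176988975 (75.1 and 89.1), chr2:176993961-176996056 (40.5 and 47.8) and chr2:176961206-176963055 (67.9 and 79.5). BRD2 was called in both lists at all of these except chr2:176993961-176996056. A further H3K4me3 region, chr2:177021874-177022815, was chosen after its values were seen. Its folds were 13.7 and 21.3, no H3K27ac, H4K5ac, H4K12ac, BRD2 or H3K27me3 peak touched it in either list, and H4K8ac and H4K5acK8ac touched it in 1 list each.

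**Figure D4:**
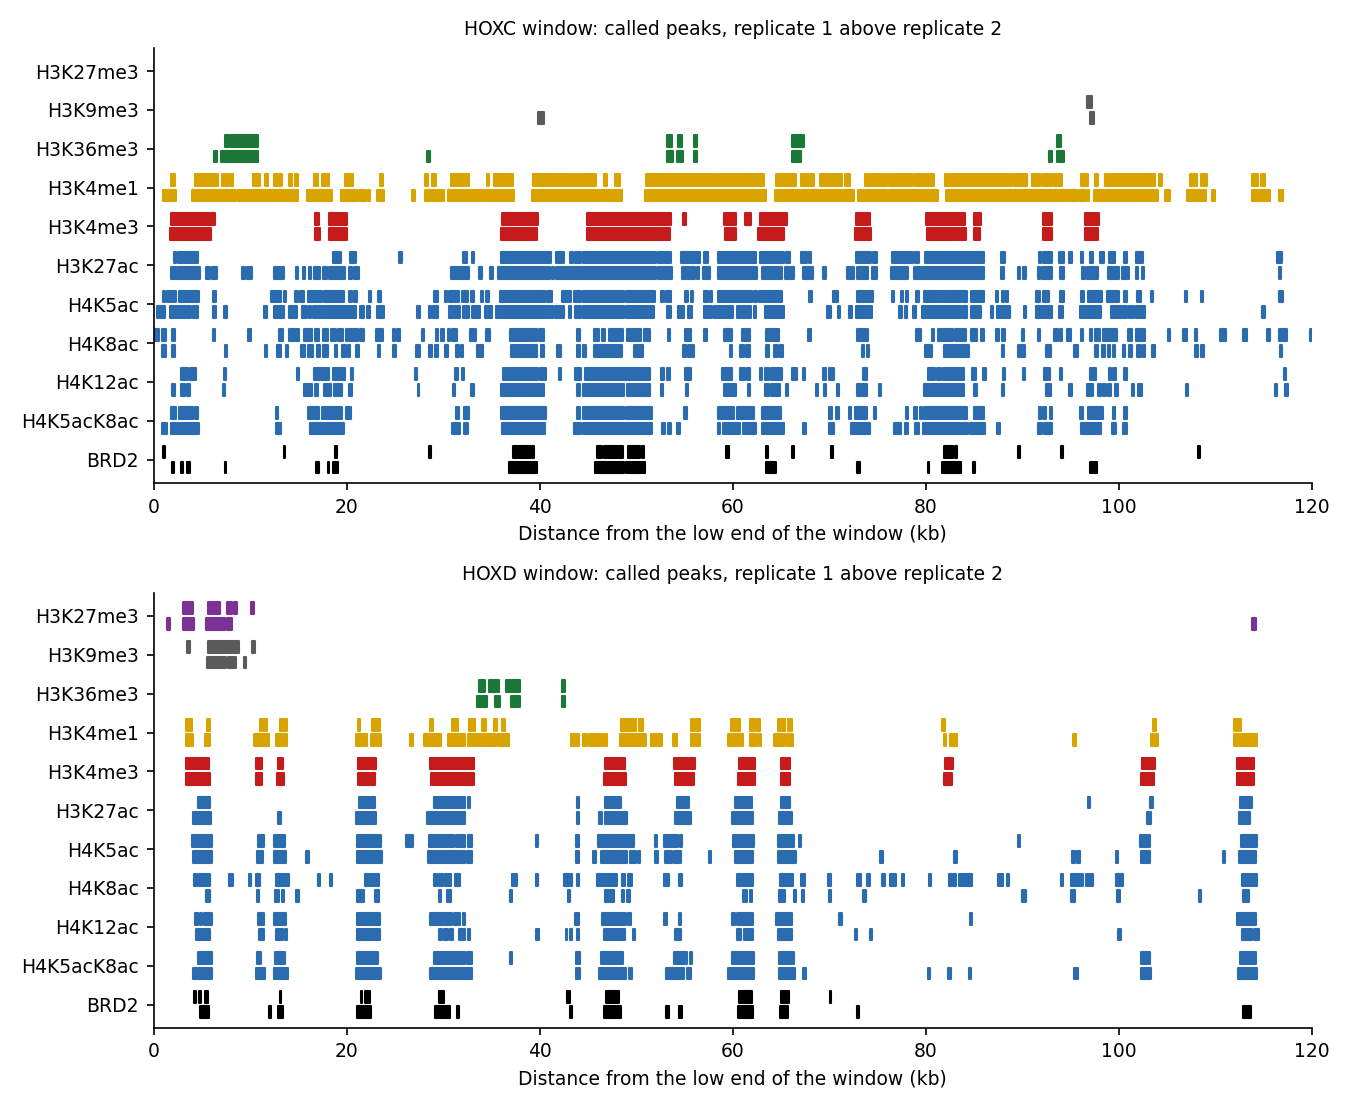
Called peaks of 11 targets (rows) along the HOXC and HOXD windows, against the distance in kb from the low end of the window, with replicate 1 drawn above replicate 2. HOXC shows dense H3K4me1 and H3K27ac through a 71 kb active segment and no H3K27me3. HOXD shows H3K27me3 with H3K9me3 at the low end of its window and active islands separated by gaps.

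No boundary between active and Polycomb chromatin met the rule in any cluster when both lists were required. The Polycomb segments of HOXB were too short, and the 3 kb segment of HOXD followed a mixed stretch of 2 kb, not an active one. In the single lists HOXB had 1 boundary in each replicate, at different places, and HOXA, HOXC and HOXD had 0. The replicate 1 boundary lay at the H3K27me3 peak chr17:46676740-46677113 and the replicate 2 boundary at chr17:46691045-46691498. Each of these peaks was found in 1 list only, so neither boundary was reproduced. Outside the windows the nearest Polycomb segment of at least 3 bins lay 4 kb below HOXB, at chr17:46591001-46596000. It was 106 kb away on the low side of HOXA and 166 kb on the low side of HOXD. Around HOXC the nearest were 1150 kb below and 462 kb above, so HOXC was the cluster farthest from Polycomb chromatin on its nearer side. Above HOXA, HOXB and HOXD the distances were 998, 388 and 537 kb.

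Between and beyond the active segments lay stretches without H3K27ac or H3K27me3 in both lists, which could still hold other marks. The longest run of bins without H3K4me3, H3K27ac or H3K27me3 in both lists was 48 kb in HOXB, chr17:46757001-46805000, between the main body of islands and the active segment at the high end, chr17:46805001-46807000. It was 19 kb in HOXA, chr7:27241001-27260000, at the HOXA13 end of the window. That HOXA stretch still held peaks of H3K4me1, H4K5ac, H4K8ac, H4K12ac and H4K5acK8ac in both lists. Each BRD2 list had peaks there too, but those of replicate 1 and replicate 2 did not overlap. H3K27ac peaks of the single lists lay in different bins there. In HOXD the longest run was 19 kb, chr2:177023001-177042000, and in HOXC 13 kb, chr12:54433001-54446000, above the 71 kb segment. Bins with no peak in any of the 22 lists were rare in the windows: 16 in HOXA, 42 in HOXB, 1 in HOXC and 29 in HOXD, or 11.4%, 20.0%, 0.833% and 24.2%, against 52.9% of the genome. The only H3K9me3 peak of HOXB lay in its 48 kb stretch, at chr17:46771999-46772504 in replicate 1 (fold 5.84) and chr17:46771914-46772496 in replicate 2 (fold 4.73). The windows are fixed by position, and their edges did not always fall in silent chromatin. Within 5 kb of the high edge of HOXB there were 25 peaks inside and 10 outside, and within 5 kb of the high edge of HOXD 0 inside and 1 outside. The low edge of HOXC had the most peaks within 5 kb, 37 inside and 8 outside, and the low edge of HOXD had 15 and 11.

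H3K4me3 regions, which usually mark start sites, numbered 11 in HOXA, 15 in HOXB, 12 in HOXC and 12 in HOXD in both lists, of 20499 in the genome. In replicate 1 the density of H3K4me3 peaks was lowest in HOXB, with 71.4 per Mb, and highest in HOXC, with 125 per Mb, against 7.33 per Mb over the genome. In replicate 2 it was 71.4 per Mb in HOXB, 108 in HOXC and 100 in HOXD, against 7.48 over the genome. The lead of HOXC was thus smaller there. The median width of the 50 regions was 1767.5 bp, against 1905 bp in the genome. Their median fold was 59.3 in replicate 1 and 68.9 in replicate 2, against 64.6 and 72.2 in the genome. By cluster the median fold was 66.7 and 78.1 in HOXA, 61.8 and 72.0 in HOXB, 42.5 and 50.0 in HOXC, and 50.2 and 59.0 in HOXD. The typical region was thus weaker than the genome's in HOXC and HOXD, and slightly so in HOXB. H3K27me3 lay on 3 of the 50 in both lists (6.0%), 2 in HOXB and 1 in HOXD, against 8.62% of the genome's regions, which is close to the background. H3K27ac lay on 43 of 50 (86.0%, genome 77.5%), H4K5acK8ac on 48 (96.0%, genome 84.5%), H4K5ac on 48 (genome 82.8%), H4K12ac on 47 (94.0%, genome 78.4%) and H4K8ac on 42 (84.0%, genome 55.4%). All 5 acetylation marks were called on 37 of the 50 (74.0%, genome 51.5%): 10 of 11 in HOXA, 11 of 15 in HOXB, 9 of 12 in HOXC and 7 of 12 in HOXD.

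By their medians, H3K4me3 regions with BRD2 were wider and stronger than those without. Of the 50, 30 held BRD2 in both lists (60.0%, genome 50.6%), 14 in 1 list and 6 in none. At least 1 list thus called it on 44, where the genome share was 69.3%. The median width was 2183.5 bp for those with BRD2 in both lists, 1594.5 bp for those with BRD2 in 1 list and 976.5 bp for those with none. The median H3K4me3 fold in replicate 1 was 67.8, 37.1 and 15.1 in the same order, and in replicate 2 it was 79.8, 41.5 and 18.4. The genome showed the same order of widths, with 2367.5, 1858 and 1009.5 bp, so this relation was not particular to the clusters. Single regions broke the order. BRD2 was in both lists at chr2:176952840-176953488, which was 649 bp wide with H3K4me3 folds of 4.63 and 6.93, and in 1 list at chr12:54331751-54336372, which was 4622 bp wide with folds of 86.3 and 95.2. By cluster, BRD2 in both lists was found on 7 of 11 regions in HOXA, 11 of 15 in HOXB, 5 of 12 in HOXC and 7 of 12 in HOXD.

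Seen from BRD2, 35 regions of the clusters were called in both lists: 7 in HOXA, 13 in HOXB, 7 in HOXC and 8 in HOXD. Many rest on weak peaks, since 64.7% of the BRD2 peaks of replicate 1 and 28.1% of those of replicate 2 had a q above 0.05 over the genome. The counts were 7, 8, 5 and 6 in the same order when −log10 q had to reach 1.3, and 5, 2, 4 and 3 when it had to reach 5, so HOXB went from most to fewest. A single list gave more, 13 and 19 peaks in HOXA (replicates 1 and 2), 21 and 23 in HOXB, 20 and 19 in HOXC, and 13 and 16 in HOXD. Peaks found in 1 list had the lower median −log10 q in every cluster. The gap was wide in HOXA, with 7.33 for shared and 0.994 for unshared peaks in replicate 1 and 29.4 and 1.71 in replicate 2. It was narrower in HOXB, with 1.63 and 1.12 in replicate 1 and 6.58 and 3.3 in replicate 2, where an unshared peak reached 10.9. Of the 35 shared regions, 34 held H3K4me3 in both lists (97.1%, genome 84.6%), 33 held H3K27ac (94.3%, genome 95.5%) and 34 held H4K5acK8ac (97.1%, genome 97.0%). All 5 acetylation marks lay on 30 of them (85.7%, genome 69.6%). The exception for H3K4me3 and H4K5acK8ac was chr2:176982829-176983332 in HOXD, which was weak, with folds of 2.28 and 4.02. The median width was 1048 bp (genome 641 bp), and the median fold was 4.42 in replicate 1 and 8.35 in replicate 2 (genome 3.97 and 7.42). The ranks of the fold within each list followed each other, with a Spearman rho of 0.866 over 35 regions that share 2 libraries (0.747 over 14382 regions of the genome).

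The strongest BRD2 region of HOXA was chr7:27152710-27154273, with folds of 8.54 in replicate 1 and 23.3 in replicate 2, above 98.33% and 99.05% of shared regions. It was followed by chr7:27208531-27210078 (7.7 and 18.7), chr7:27223123-27224639 (6.75 and 18.8), chr7:27189704-27191352 (5.76 and 14.2) and chr7:27200121-27201039 (5.9 and 11.6). HOXB had 1 strong region, chr17:46687205-46689034 (9.58 and 21.5), and the next were weaker in both lists: chr17:46655828-46656605 (4.42 and 11.1), chr17:46680998-46682051 (5.11 and 10.0), chr17:46670499-46672141 (4.28 and 8.22) and chr17:46805568-46806899 (3.71 and 7.78). The last of these lay at the high end, past the 48 kb stretch.

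In HOXC the leading BRD2 region was chr12:54411732-54413628 (7.52 and 15.9), at the place of strongest acetylation. It was followed by chr12:54366878-54369732 (8.28 and 12.7) and a pair on the widest H3K4me3 region, chr12:54375767-54378762 (7.43 and 13.2) and chr12:54378967-54380542 (6.16 and 9.57), and then by chr12:54348601-54349084 (3.19 and 7.5). Of the H3K27ac regions called in both lists, BRD2 lay on 5 of 32 in HOXC, 7 of 20 in HOXA, 11 of 13 in HOXB and 6 of 10 in HOXD, against 21.1% of 54027 in the genome. In HOXC 13 of these 32 held H3K4me3, against 17 of 20 in HOXA, 12 of 13 in HOXB, 9 of 10 in HOXD and 30.7% in the genome. In HOXD the regions were chr2:176986704-176988408 (6.35 and 15.0), chr2:177000546-177002121 (6.29 and 12.4), chr2:176961128-176962553 (5.15 and 10.9), chr2:176944745-176945792 (4.27 and 11.8) and chr2:177004899-177005835 (4.66 and 8.35). The region at 176944745 lay at the low end of the window and met the H3K27me3 and H3K9me3 stretch. BRD2 met H3K27me3 in both lists at that region and at chr17:46702632-46703213 in HOXB (2.28 and 4.01), 2 of 35, against 1.15% of BRD2 regions in the genome.

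**Figure D5:**
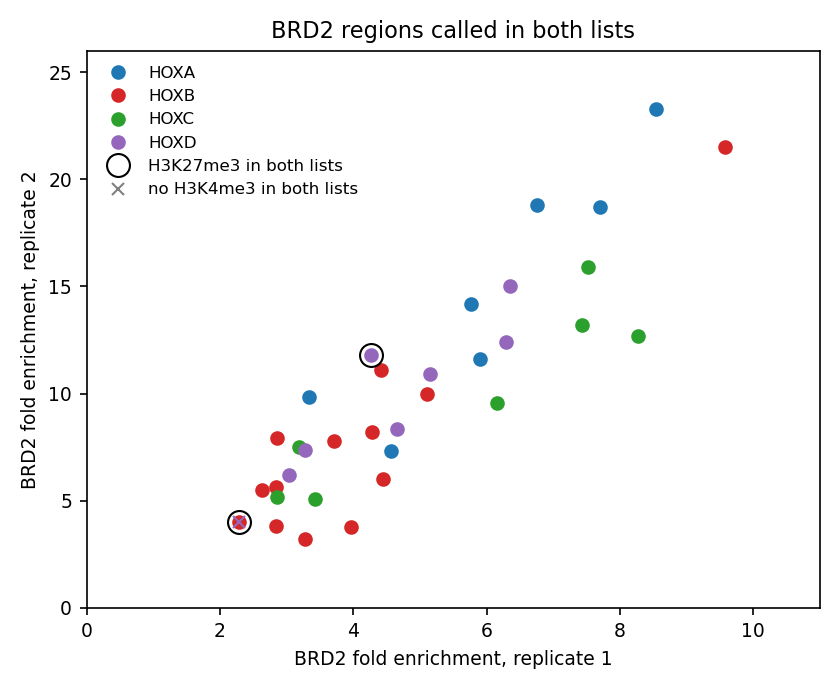
BRD2 fold enrichment in replicate 1 (x axis) and replicate 2 (y axis) of the 35 regions called in both lists, coloured by cluster, with a cross for the region without H3K4me3 in both lists and a ring around the 2 with H3K27me3 in both lists. The HOXB and HOXD regions at folds of 2.28 and about 4 lie on top of each other, and the top of the plot holds HOXA regions and 1 HOXB region at 9.58 and 21.5.

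Bins carrying all 5 acetylation marks in both lists numbered 20 in HOXA, 23 in HOXB, 29 in HOXC and 14 in HOXD, 86 of 590 or 14.6%, against 1.08% of the genome. H3K4me3 was called in 76 of the 86 (88.4%, genome 59.3%). BRD2 was called in 57 (66.3%, genome 48.0%): 14 of 20 in HOXA, 18 of 23 in HOXB, 14 of 29 in HOXC and 11 of 14 in HOXD. Of the 70 bins with BRD2 in both lists, all 70 had H4K5acK8ac (genome 96.1%) and 67 had H3K4me3 (95.7%, genome 82.6%). In the other direction, BRD2 was called in 67 of the 148 bins with H3K4me3 (45.3%, genome 29.3%) and in 70 of the 185 with H4K5acK8ac (37.8%, genome 20.8%). Bins with H3K4me1 but neither H3K27ac nor H3K4me3 were 21 in HOXA, 23 in HOXB, 30 in HOXC and 9 in HOXD, or 15.0%, 11.0%, 25.0% and 7.5%, against 2.96% of the genome. Bins with an H4 acetylation but no H3K27ac in both lists were 39, 50, 30 and 25 in the same order, or 27.9%, 23.8%, 25.0% and 20.8%, against 2.58% of the genome.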

How the data were processed

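ChIP-seq peak lists of 11 targets in NCI-H23 cells were used, 2 libraries per target, grouped by sample title; the 1 input library was not used here. The second H3K9me3 library's description carries another replicate number, and its title was followed. Per the submitters' processing notes, the tools were BWA and MACS2 and the build was hg19; versions, settings and control are not given in the sources used here. The deposited lists give a fold enrichment per peak, a ratio to the caller's background, with −log10 p and −log10 q. These are the authors' values, compared only among peaks of the same list. The deposited score was not used, and the deposited summit offset placed each peak. The lists hold no read numbers.

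Peaks were assigned, binned (1 kb, overlap of at least 1 bp) and joined with Python 3.11.15, numpy 2.4.6 and pandas 2.3.3. Plots used matplotlib 3.10.9. Regions are overlapping peaks of both lists merged. The functions gave 0 wrong results in 200 simulated sets for bin classes and 0 in 200 for shared regions. Members and lists were chosen with earlier results of these data known.

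The named regions follow a rule: per cluster the longest Polycomb and active segments, every boundary, the 5 longest H3K4me3 regions, the 5 shared BRD2 regions with the highest mean −log10 q, and the strongest member of each list. Other regions named were chosen after their values were seen. Alternatives were a −log10 q of at least 1.3 or 5, bins covered by at least 50%, bins of 500 bp or 2 kb, single lists and a replicate block.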

Additional observations from a re-analysis of the deposited data

How the results depend on the processing

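The share of bins called H3K27me3 minus that called H3K27ac was −26.4 percentage points in HOXA, −11.9 in HOXB, −56.7 in HOXC and −13.3 in HOXD, and it was negative under all 32 alternatives run. In HOXA and HOXC no setting called any H3K27me3, so the difference could not be positive there and its sign tests nothing. The difference moved beyond the spread between replicates in 18 of the 32 alternatives. With a −log10 q of at least 5 it was −20.0 in HOXA and −42.5 in HOXC. With at least 50% of a bin covered it was −14.3, −7.14, −34.2 and −9.17 in HOXA, HOXB, HOXC and HOXD. With 500 bp bins it was −20.7 in HOXA and −10.2 in HOXB, and with 2 kb bins −35.7 in HOXA, −17.1 in HOXB and −18.3 in HOXD. Without 1 of the replicates it ranged from −33.6 to −32.9 in HOXA, −13.8 to −12.4 in HOXB, −74.2 to −58.3 in HOXC and −18.3 to −14.2 in HOXD. By the way bins are counted, a single list calls a mark in at least as many bins as both lists together. A stricter q or cover threshold calls it in no more. Beyond this counting, the cause of these moves was not tested. With the replicate block, where same-numbered lists are paired, it was −33.2 in HOXA, −13.1 in HOXB, −66.2 in HOXC and −16.2 in HOXD. Over 55 pairs of targets, same-numbered lists deviated together with correlations of −0.241 to 0.354 (bins of 100000 bp), and 2 were over 0.1. These correlations cannot settle whether same-numbered libraries share a culture or batch, and the labels do not say.

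The number of BRD2 regions called in both lists, 7 in HOXA, 13 in HOXB, 7 in HOXC and 8 in HOXD, fell in HOXB to 8 with a −log10 q of at least 1.3. With at least 5 it was 5 in HOXA, 2 in HOXB, 4 in HOXC and 3 in HOXD. Single lists gave 13 to 19 in HOXA, 21 to 23 in HOXB, 19 to 20 in HOXC and 13 to 16 in HOXD. The order of clusters by BRD2 count thus depended on the threshold. Of the 308 alternatives for the share of each cluster called by each target, 197 moved the value beyond the spread between replicates. Read depth is unknown, which limits any statement on weak or absent peaks.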
